A study of Mus musculus with 15 samples.

Results

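The genes described here are 9 members of the mouse high mobility group (HMG) protein family: Hmga1, Hmga2, Hmgb1, Hmgb2, Hmgb3, Hmgn1, Hmgn2, Hmgn3 and Hmgn5. They are 9 of the 53801 genes in the count table. The list was chosen on the gene names of the family with measured values from these same libraries already known, so the members' levels and differences are a description, with no test of their own. HMG proteins are small, abundant chromatin proteins that bind without acting as enzymes. The Hmga proteins bind the minor groove of AT-rich DNA through short AT-hook motifs, the Hmgb proteins bend DNA with a pair of HMG boxes, and the Hmgn proteins bind the nucleosome itself and loosen the hold of linker histones. In neural stem cells Hmga2 is known for keeping self-renewal high in young animals, and its mRNA is a classical target of let-7 microRNAs.

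RNA was sequenced from adult neural stem cells (aNSCs) grown in suspension from the subventricular zone, a stem cell niche of the adult brain, of mice aged 2 months. All mice carried Rosa26-CreERT2, a ubiquitously expressed Cre recombinase that 4-hydroxytamoxifen (4-OHT) activates, and loxP sites in Trrap, either heterozygous (Fl/+) or homozygous (Fl/Fl). Trrap is a scaffold subunit of histone acetyltransferase complexes. The 15 libraries form 3 groups of 5: Fl/+ untreated, Fl/+ 4-OHT and Fl/Fl 4-OHT. The labels give 5 days of 4-OHT, whereas the study's methods give a shorter exposure and then medium without the drug. Both Fl/+ groups came from mice 19, 24, 26, 35 and 36, and the Fl/Fl group from mice 27, 28, 29, 37 and 39, so each library is the culture of 1 mouse. The strain label names both C57BL6/J and 129sv. Each group has 3 mice labelled male and 2 labelled female (24 and 26, or 37 and 39). There was no untreated Fl/Fl group, and Fl/+ cultures given 4-OHT can lose 1 Trrap allele.

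The libraries held 25720034 to 32187097 counted reads. In the untreated cultures the neural stem cell markers Nes and Sox2 were at 991 and 400 CPM. CPM are counts scaled to a common library total by TMM. The other listed stem cell markers ranged from Prom1 (15.05 CPM) to Fabp7 (3618 CPM). Astrocyte markers ranged from Gfap (57.7 CPM) to Slc1a3 (3254 CPM). Oligodendrocyte markers ranged from Mog (0.0214 CPM) to Olig1 (2442 CPM), and neuron markers from Stmn2 (0.128 CPM) to Map2 (902 CPM). These levels do not tell neural stem cells apart from other neural cells. The summed level of 7 microglial and endothelial markers was 0.350 to 2.05 CPM over all libraries. Of the 7, 2 were at 0 in each group. Trrap, the targeted gene, was at 104 ± 24.2 CPM in Fl/Fl 4-OHT, 164 ± 26.4 in Fl/+ 4-OHT and 190 ± 14.2 in Fl/+ untreated cultures (SD, n = 5 each). The count covers the whole gene, so transcripts that lack only the floxed segment are still counted. The 4-OHT groups overlapped in 1 of 25 pairs of libraries, Fl/Fl 29 (142 CPM) lying above Fl/+ 19 (138 CPM). Sex-linked genes went against the label in the library labelled Fl/Fl 39, called female, which had 1556 reads of the Y-linked Ddx3y and 9 of Xist. The library of mouse 36 given 4-OHT, labelled male, had 2117 Xist reads beside 1500 of Ddx3y. Its untreated culture had 160 Xist reads beside 1295 of Ddx3y, against 4 to 16 Xist reads in male-labelled libraries of other mice. That untreated culture was not left out on this ground. Where a call of a named gene is lost without both Fl/Fl 39 and the treated culture of mouse 36, this is said beside it.

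The members are spread over 8 chromosomes of GRCm38: Hmga1 at chr17:27556497-27563674, Hmga2 at chr10:120361275-120476469, Hmgb1 at chr5:149046702-149184489, Hmgb2 at chr8:57511907-57515999, Hmgb3 at chrX:71555918-71560676, Hmgn1 at chr16:96120618-96127729, Hmgn2 at chr4:133964738-133968650, Hmgn3 at chr9:83109948-83146685 and Hmgn5 at chrX:109004534-109013404. Promoter windows from 250 bases before to 50 bases after the start were read from RefSeq (GRCm38.p6) for 8 members, with 2 windows each for Hmga1 and Hmgb1. Hmgn3 was not matched. The windows below belong to the 4 members that differed most clearly between groups. Capitals mark GC boxes, the GGGCGG motif bound by Sp1-type factors, and CCAAT boxes, both searched on either strand.
Hmga1 (chr17:27556324-27556623, plus strand): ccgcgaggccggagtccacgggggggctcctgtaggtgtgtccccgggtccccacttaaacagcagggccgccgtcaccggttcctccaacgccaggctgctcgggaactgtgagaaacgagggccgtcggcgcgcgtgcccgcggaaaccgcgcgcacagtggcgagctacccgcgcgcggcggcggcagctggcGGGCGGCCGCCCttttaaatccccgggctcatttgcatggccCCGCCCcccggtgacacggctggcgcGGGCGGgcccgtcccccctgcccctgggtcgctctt
Hmga2 (chr10:120476420-120476719, minus strand): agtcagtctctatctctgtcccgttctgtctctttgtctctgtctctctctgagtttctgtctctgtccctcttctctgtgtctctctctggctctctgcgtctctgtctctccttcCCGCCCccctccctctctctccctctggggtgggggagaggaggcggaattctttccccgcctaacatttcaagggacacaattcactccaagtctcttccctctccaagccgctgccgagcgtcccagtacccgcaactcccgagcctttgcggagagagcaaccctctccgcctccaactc
Hmgb1 (chr5:149053008-149053307, minus strand): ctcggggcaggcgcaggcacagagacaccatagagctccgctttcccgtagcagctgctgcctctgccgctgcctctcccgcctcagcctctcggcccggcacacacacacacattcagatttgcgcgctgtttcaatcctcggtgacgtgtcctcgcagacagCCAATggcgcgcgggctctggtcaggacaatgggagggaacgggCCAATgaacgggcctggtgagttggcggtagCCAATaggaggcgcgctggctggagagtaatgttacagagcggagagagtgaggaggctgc
Hmgb3 (chrX:71555667-71555966, plus strand): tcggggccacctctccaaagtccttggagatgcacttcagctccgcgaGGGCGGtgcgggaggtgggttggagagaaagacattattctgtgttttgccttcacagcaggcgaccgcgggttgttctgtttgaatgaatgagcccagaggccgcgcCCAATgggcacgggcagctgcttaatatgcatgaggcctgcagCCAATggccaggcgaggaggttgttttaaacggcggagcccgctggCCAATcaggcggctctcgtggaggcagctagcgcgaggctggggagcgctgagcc

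The Hmga1 window held 4 GC boxes and no CCAAT box, and the Hmga2 window held 1 GC box and no CCAAT box. The Hmgb3 window held 3 CCAAT boxes and 1 GC box, the Hmgb2 window 4 CCAAT boxes and 1 GC box, and the printed Hmgb1 window 3 CCAAT boxes and no GC box. The other Hmgb1 start (chr5:149051567-149051866) had 4 GC boxes and no CCAAT box. Over all member windows, GC boxes were present in 8 of 10 and CCAAT boxes in 6 of 10. Of the 32851 promoter windows in the same RefSeq set, 35.7% held a GC box and 37.4% a CCAAT box. The E-box CACGTG was present in 2 of 10 member windows and in 7.15% of all windows, and the E2F motifs TTTGGCGC or TTTCCCGC in 0 of 10 and 1.56%. A motif match is a description of the sequence and says nothing about which factors were bound in these cultures.

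The let-7 match is shown because Hmga2 mRNA carries several of them. The mature let-7a-5p is printed with its seed (bases 2 to 8) in capitals, followed by 4 sites of the Hmga2 3′ untranslated region with the complementary CTACCTC in capitals, with positions counted from the first base of the stop codon.
let-7a-5p: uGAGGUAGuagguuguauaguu
Hmga2 site at base 61: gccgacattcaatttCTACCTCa
Hmga2 site at base 1298: ccccactcctcaataCTACCTCt
Hmga2 site at base 1736: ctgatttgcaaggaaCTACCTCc
Hmga2 site at base 2594: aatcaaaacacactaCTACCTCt
Of 21707 genes with an annotated 3′ untranslated region, 8.74% held at least 1 CTACCTC and 12, Hmga2 included, held 4 or more. Hmga1 held 1, and the other 7 members held 0. No microRNA was measured in these libraries.

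Levels between genes were compared as CPM per kb of exon. In untreated cultures Hmgn3 was highest at 60.1 ± 9.90 CPM per kb (SD, n = 5), followed by Hmgn1 (33.0 ± 4.34), Hmgn5 (29.8 ± 3.71) and Hmgb3 (12.5 ± 1.64). Hmga1 (4.31 ± 1.97), Hmgb2 (3.80 ± 1.33), Hmgb1 (2.83 ± 0.182) and Hmgn2 (2.41 ± 2.43) lay within each other's spread. Hmga2 was lowest at 0.556 ± 0.131. Hmgn1 and Hmgn5 were also within 1 SD of each other. The 4 Hmgn genes together made up 109 to 134 CPM per kb in untreated cultures, against 17.1 to 22.1 for the 3 Hmgb genes and 3.13 to 8.32 for the Hmga pair.

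**Figure D1:**
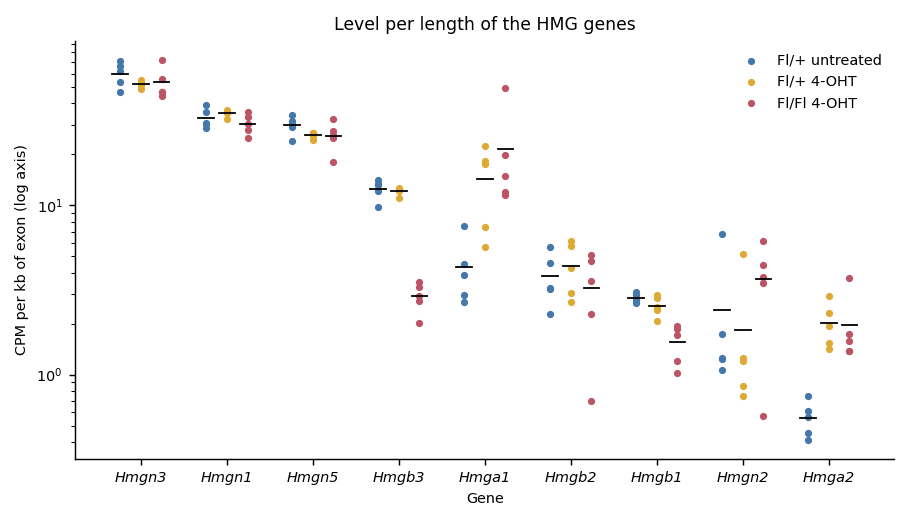
Level of the 9 HMG genes in CPM per kb of exon on a log axis, with 1 point per library, 5 libraries per group, and a black line at the group mean. Hmgn3, Hmgn1 and Hmgn5 are the highest in every group, Hmgb3 drops from a mean of 12.1 to 2.89 CPM per kb between the Fl/+ and Fl/Fl cultures given 4-OHT, and Hmga2 starts at 0.556 CPM per kb.

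These levels depend on which reads can be assigned. Only uniquely mapped reads were counted, and HMG genes have many processed pseudogenes. Of all 51-base stretches in the protein-coding transcripts, 51 bases being the read length, Hmga1 shared 54.6% with another annotated gene, Hmgn2 40.9%, Hmgb3 27.9%, Hmgb1 23.4%, Hmgb2 21.1%, Hmgn5 18.5%, Hmgn1 6.27%, Hmga2 1.29% and Hmgn3 0%. Hmgb1 shared stretches with 129 other annotated genes, the most of the 9, and Hmga1 with just 1, Hmga1b. A read lying wholly in such a stretch is not unique, so levels of all members but Hmgn3 are uncertain, those of Hmga1 and Hmgn2 in particular. The order among the low members and the Hmgb totals against the Hmgn totals are uncertain for the same reason. Only exact matches were searched, over all protein-coding transcripts of a gene together. Summing each member with its near-copies changed no member's direction.

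The first comparison set 4-OHT-treated against untreated Fl/+ cultures of the same mice. In it the drug, the activated Cre and the possible loss of 1 Trrap allele cannot be told apart. 2 of the 9 members, both of the Hmga subfamily, passed (edgeR, quasi-likelihood, Benjamini-Hochberg adjusted p under 0.05), and both were higher. Of the 14821 genes tested, 13.8% passed, 7.34% in the higher and 6.45% in the lower direction. In a paired fit with mouse as a replicate block the same 2 members passed, while the count over all genes grew from 2044 to 3809. Nothing is read from the members' count, since these contrasts were known when the list was made.

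Hmga2, the AT-hook protein of fetal and young stem cells, was at 5.03, 3.07, 4.13, 3.81 and 2.80 CPM in the untreated cultures of mice 19, 24, 26, 35 and 36. After 4-OHT the same mice gave 19.7, 10.5, 9.60, 15.6 and 13.2 CPM. Every treated culture lay above every untreated one. For 12.0% of all genes tested the groups did not overlap, in either direction. The log2 fold change was 1.86 ± 0.24 (SE), and within mice the ratio ran from 2.33 in mouse 26 to 4.70 in mouse 36, higher in 5 of 5.

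Hmga1, the other AT-hook gene, was at 16.1, 5.69, 8.19, 6.23 and 9.57 CPM untreated (mice 19, 24, 26, 35 and 36). With 4-OHT it was at 37.5, 12.0, 15.7, 47.7 and 39.0 CPM. The groups overlapped, because mice 24 and 26 after treatment remained below mouse 19 before it. The log2 fold change was 1.73 ± 0.41, and the within-mouse ratio was lowest in mouse 26 (1.92) and highest in mouse 35 (7.65). Mice 24 and 26, the female-labelled pair, had the 2 lowest treated levels.

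Reads were also divided between Hmga1 and Hmga1b, a near-copy at chr11:120762794-120764419. In the untreated cultures Hmga1b had 100, 113 and 135 reads in mice 19, 24 and 26 but 5 and 3 in mice 35 and 36. After 4-OHT it had 324, 419 and 383 reads in the first 3 mice and 11 and 9 in the other 2. The division differed by mouse in both Fl/+ groups. Among Fl/Fl cultures, mice 27, 28 and 29 had 205, 302 and 204 Hmga1b reads and mice 37 and 39 had 36 and 10. Hmga1b took 52.5% of the summed reads in the treated culture of mouse 24 and 0.794% in that of mouse 35. The sum of both genes was 6.43 to 19.7 CPM untreated and 25.3 to 48.4 CPM with 4-OHT, without overlap, and its log2 fold change was 1.72, close to that of Hmga1 alone. The reason for the division among mice was not tested.

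**Figure D2:**
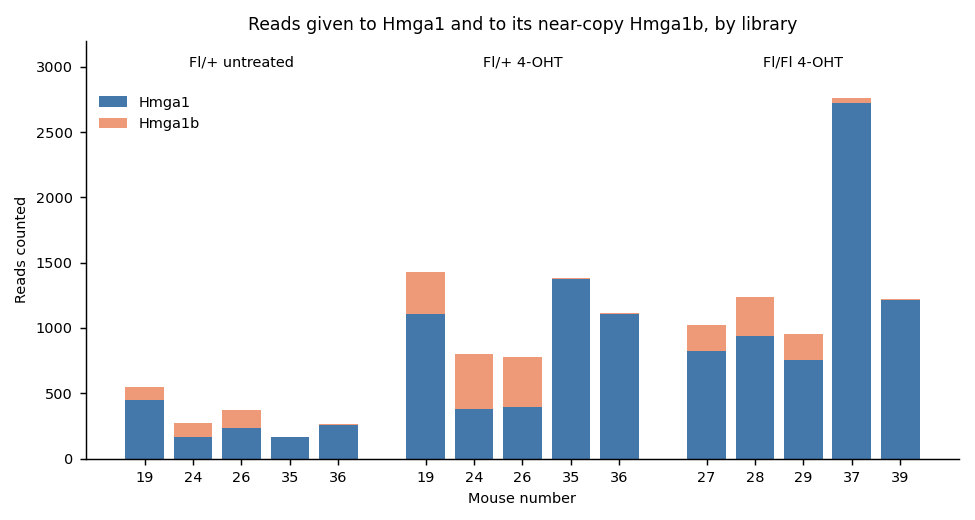
Reads counted for Hmga1 (blue) and stacked on them for its near-copy Hmga1b (orange) in each of the 15 libraries, by group and mouse number. Mice 19, 24, 26, 27, 28 and 29 have between 100 and 419 Hmga1b reads, while mice 35, 36, 37 and 39 have 36 or fewer.

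The other 7 members did not pass the test with 4-OHT, and their log2 fold changes were between -0.38 and 0.21. Hmgb3 was at 27.9 ± 3.67 CPM untreated and 27.1 ± 1.47 treated (SD, n = 5), and Hmgb1 at 14.2 ± 0.912 and 12.8 ± 1.74. Hmgn1 was at 106 ± 14.0 and 113 ± 4.95 CPM, and Hmgn3 at 112 ± 18.5 and 97.1 ± 4.45. The Hmgn5 level was 57.6 ± 7.17 untreated and 50.4 ± 1.93 CPM treated, lower in 4 of 5 mice, with a log2 fold change of -0.19 ± 0.09. The coefficient of variation of CPM was lower in treated than in untreated cultures for 5 of the 9 members and higher for 4, and it was lower for 68.1% of all genes tested. For Hmgn1, Hmgn3, Hmgn5 and Hmgb3 it was 4.39%, 4.59%, 3.83% and 5.43% against 13.2%, 16.5%, 12.4% and 13.2%, and for Hmgb1 13.6% against 6.42%.

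**Figure D3:**
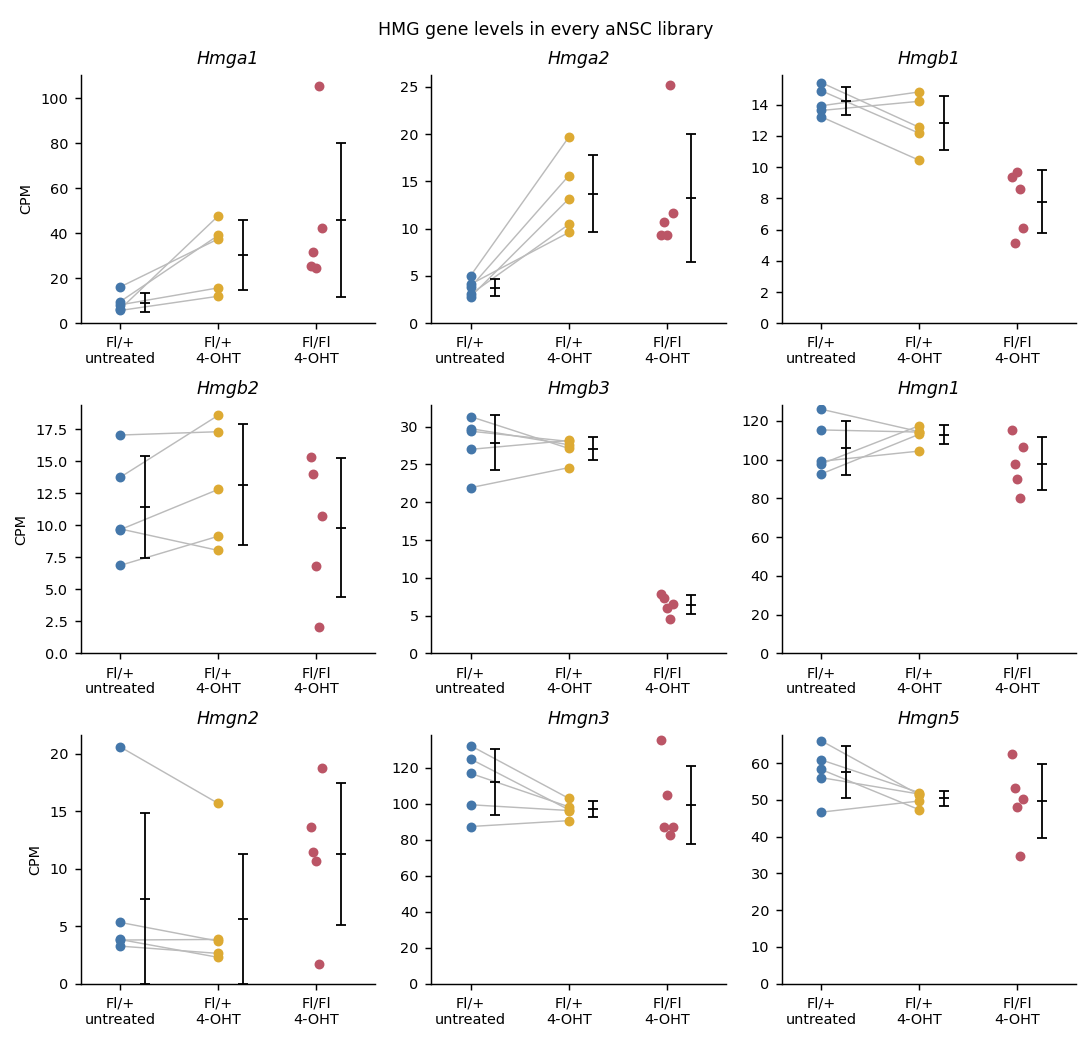
CPM of each HMG gene in every library (TMM-scaled, axes from 0), grouped as Fl/+ untreated (blue), Fl/+ 4-OHT (yellow) and Fl/Fl 4-OHT (red). Grey lines join the cultures of 1 mouse and black bars give the mean ± SD of 5 libraries, clipped at 0. Both Hmga genes are higher in every mouse after 4-OHT, Hmgb3 separates the Fl/Fl cultures from all others, and Hmgn2 is high in both cultures of mouse 36.

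The second comparison set Fl/Fl against Fl/+ cultures that both received 4-OHT, and is called Trrap deletion below. The groups came from different mice, and there was no untreated Fl/Fl group. Loss of Trrap therefore cannot be told apart from differences between the mice that were present before 4-OHT. Hmgb3 and Hmgb1 passed, 2 of the 9 members, both lower in Fl/Fl cultures, and the Hmga pair did not. Of the 15036 genes tested, 31.7% passed, 16.8% higher and 15.0% lower. Again the contrast was known when the list was made.

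Hmgb3, the X-linked HMG-box gene known for its expression in stem and progenitor cells, was at 27.6, 28.1, 28.2, 24.6 and 27.1 CPM in Fl/+ 4-OHT mice 19, 24, 26, 35 and 36. In Fl/Fl 4-OHT mice 27, 28, 29, 37 and 39 it was at 7.86, 7.34, 6.06, 4.52 and 6.53 CPM. No Fl/Fl value reached any Fl/+ value, treated or not, the nearest untreated value being 21.9 CPM in mouse 35. Fl/Fl and Fl/+ 4-OHT cultures did not overlap for 22.6% of all genes tested. The log2 fold change was -2.05 ± 0.14 (SE), so the level was 4.14-fold lower, and it stayed between -2.13 and -1.96 when any single library was left out. Labelled males alone gave -1.90.

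Hmgb1, the most widely expressed HMG-box protein and an alarm signal when released from cells, was at 12.5, 12.2, 10.4, 14.2 and 14.8 CPM in Fl/+ 4-OHT cultures. It was at 9.38, 5.17, 9.67, 8.62 and 6.08 CPM in Fl/Fl 4-OHT cultures. The groups did not overlap, but the highest Fl/Fl library (mouse 29) and the lowest Fl/+ library (mouse 26) were close. The log2 fold change was -0.70 ± 0.19. Without both libraries at odds with their sex labels (Fl/Fl 39 and Fl/+ 4-OHT 36) it was -0.58 and no longer passed.

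Hmgb2, the HMG-box gene most tied to dividing cells, was more scattered. It was at 17.3, 9.15, 12.8, 18.6 and 8.04 CPM in Fl/+ 4-OHT cultures and at 15.3, 14.0, 6.82, 2.09 and 10.8 CPM in Fl/Fl 4-OHT cultures. The groups overlapped, and Fl/Fl 37 alone was lowest of all 15 libraries. The log2 fold change was -0.41 ± 0.44. The summed level of 12 proliferation markers was also lowest in Fl/Fl 37 (630 CPM), against 738 to 1382 CPM in the other Fl/Fl cultures and 1298 to 2149 CPM in Fl/+ 4-OHT cultures. Whether the number of dividing cells had a part in the Hmgb levels was not tested, and in such cultures fewer cells of a kind and less RNA per cell cannot be told apart.

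Neither Hmga gene passed in this comparison, and both depended on which mice were compared. Hmga1 was at 25.5, 31.8, 24.6, 105 and 42.1 CPM in Fl/Fl mice 27, 28, 29, 37 and 39. Its log2 fold change was 0.61 ± 0.47, and 0.03 without Fl/Fl 37. Hmga2 was at 9.29, 10.7, 9.34, 25.2 and 11.7 CPM in the same cultures, with a log2 fold change of -0.04 ± 0.30. Fl/Fl 37 was the highest library for both. Among labelled males only, 3 against 3, both genes passed in the lower direction, with log2 fold changes of -0.61 for Hmga1 and -0.73 for Hmga2, where 34.7% of 15238 genes passed, 18.6% in the lower direction. Trrap itself did not pass in that subset (-0.35, against -0.64 with all libraries). Among labelled females, 2 against 2, both were higher in the Fl/Fl cultures, 1 of which carries the sex-linked genes of a male. Counted without Hmga1b, neither gene overlapped between the groups within either sex label, and nor did 50.3% of all genes tested among labelled males and 62.5% among labelled females. With the Hmga1b reads added, Hmga1 did overlap among labelled males, at 31.3 to 42.0 CPM in Fl/Fl and 39.4 to 48.4 CPM in Fl/+ 4-OHT cultures. The 2 female Fl/+ 4-OHT libraries are also those with the most Hmga1b reads, whereas the Fl/Fl females had 36 and 10. Sex label cannot be told apart from the set of mice here. Over all libraries of this comparison the summed Hmga1 and Hmga1b counts gave a log2 fold change of 0.42.

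Of the Hmgn genes none passed. Hmgn1 had a mean of 97.9 ± 13.9 CPM in the Fl/Fl group, against 113 ± 4.95 CPM in Fl/+ 4-OHT (SD, n = 5). Hmgn3, which shares no 51-base stretch with another gene, was at 99.5 ± 21.8 and 97.1 ± 4.45 CPM. Hmgn5 was at 49.7 ± 10.03 and 50.4 ± 1.93 CPM, with a log2 fold change of -0.003 ± 0.13 whose sign depended on the setting.

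Hmgn2 had the highest coefficient of variation of the 9 members in both Fl/+ groups (101% in each), though not in the Fl/Fl group (54.9%, against 74.1% for Hmga1), and mouse 36 was high in both of its cultures. It was at 3.80, 5.34, 3.85, 3.27 and 20.6 CPM in untreated mice 19, 24, 26, 35 and 36, and at 3.85, 3.70, 2.29, 2.63 and 15.7 CPM in the same mice with 4-OHT. In Fl/Fl 4-OHT mice 27, 28, 29, 37 and 39 the values were 13.7, 11.5, 10.7, 1.74 and 18.8 CPM, 4 high and 1 low. The log2 fold change of Fl/Fl against Fl/+ cultures was 1.02 ± 0.62 and did not pass. Without Fl/+ 4-OHT 36 it was 1.85 and passed, and without both that library and Fl/Fl 39 it was 1.59 and did not pass. The near-copy Gm10282 had 0 to 2 reads in every library.

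The 3 genes whose log2(CPM + 0.5) was most like that of Hmgn2 over the 15 libraries were Ndufs5 (r = 0.84), Fanci (0.83) and Alg6 (0.83). They are given as a description over libraries of which 10 came in pairs from 5 mice. Ndufs5 and Alg6 lie on chromosome 4 as Hmgn2 does, at chr4:123712710-123718202 and chr4:99715664-99763460. Ndufs5 had 131 and 122 reads in the untreated and treated cultures of mouse 36, 174 in Fl/Fl 27 and 130 in Fl/Fl 39, but 4 to 13 in all others. With group means subtracted, the 3 correlations were 0.83, 0.81 and 0.85, so the likeness lies among mice within groups. For Hmgb3 the closest were Cbx2 (0.98), Cenpt (0.98) and Bzw2 (0.98), and these dropped to 0.58, 0.59 and 0.49 within groups. Cbx2, a Polycomb subunit, was at 21.8 ± 2.11 CPM in Fl/+ 4-OHT and 7.92 ± 1.08 CPM in Fl/Fl 4-OHT cultures. For Hmga1 they were Rgs20 (0.98), S1pr3 (0.97) and Vgf (0.96), with 0.95, 0.92 and 0.91 within groups. Fl/Fl 37 was the highest library for Hmga1 and for all 3. It had 190 CPM of Vgf and 102 of S1pr3, where Fl/Fl 39, the next Fl/Fl culture, had 32.2 and 19.8.

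Fl/Fl 4-OHT cultures were also set against untreated Fl/+ cultures, where genotype and treatment differ together and which shares libraries with both comparisons above. Hmga1, Hmga2, Hmgb1 and Hmgb3 passed, that is 4 of 9, where 30.7% of 15032 genes passed, 15.7% higher and 15.1% lower. None of these 4 members overlapped between the groups, and 23.1% of all genes tested did not. The log2 fold changes were 2.33 ± 0.45 for Hmga1, 1.82 ± 0.30 for Hmga2, -0.85 ± 0.18 for Hmgb1 and -2.10 ± 0.17 for Hmgb3. Hmgb1 did not pass among labelled males alone (-0.81). Hmgn2 (0.62 ± 0.63) passed only when the untreated culture of mouse 36 was left out (1.48).

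**Figure D4:**
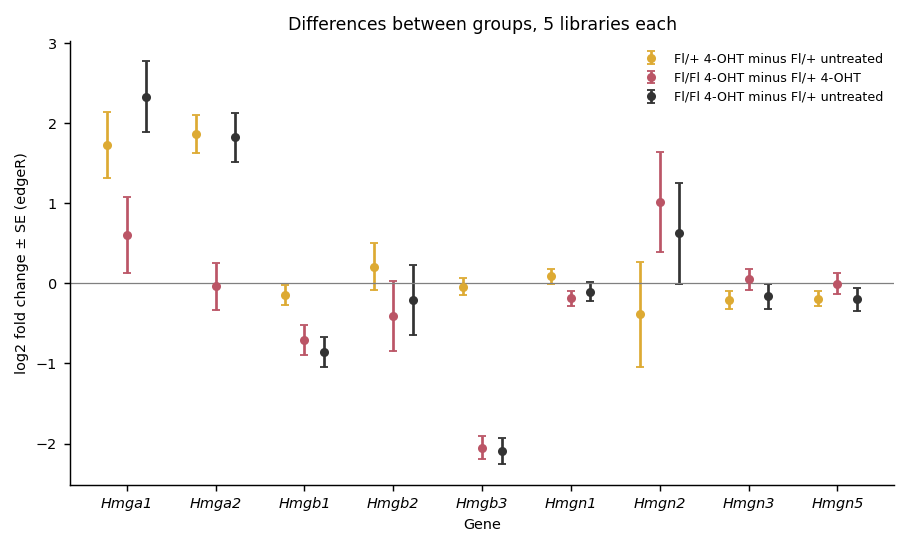
Log2 fold change ± SE (edgeR) of each HMG gene for Fl/+ 4-OHT minus Fl/+ untreated (yellow), Fl/Fl 4-OHT minus Fl/+ 4-OHT (red) and Fl/Fl 4-OHT minus Fl/+ untreated (black), 5 libraries per group. The Hmga genes lie at 1.73 and 1.86 with 4-OHT, Hmgb3 lies at -2.05 in the Fl/Fl against Fl/+ comparison, and Hmgn2 has the widest errors.

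Genes around the family were read from lists that were also drawn up with earlier results known. The counts of these lists stand beside the shares over all genes tested. After Trrap deletion 16.8% passed in the higher and 15.0% in the lower direction. With 4-OHT 7.34% passed higher and 6.45% lower. In the paired fit with the replicate block 2046 of 14821 genes passed higher and 1763 lower. Nothing is read from the list counts themselves. Of 20 other HMG-box and HMG-named genes, 18 were tested after Trrap deletion. 2 of them rose and 5 fell, with a median log2 fold change of -0.18 against 0.02 over all genes. Tcf7, a Wnt-pathway HMG-box factor, rose from 5.48 ± 1.19 to 11.4 ± 1.56 CPM (SD, n = 5; edgeR adjusted p = 0.00115). Tox3, another HMG-box gene, fell from 34.2 ± 6.88 to 17.6 ± 5.00 CPM (adjusted p = 0.00554). With 4-OHT 2 of the 18 rose and 1 fell, or 2 and 4 in the paired fit with the replicate block. Bbx rose from 21.9 ± 4.55 to 41.8 ± 7.49 CPM (adjusted p = 0.00394) and Tox3 fell from 57.3 ± 9.58 to 34.2 ± 6.88 CPM (adjusted p = 0.0103).

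Linker histones are the proteins that Hmgn and Hmga proteins compete with on chromatin. Of 10 listed genes 5 were tested with 4-OHT, 0 rose and 3 fell, where 6.45% of all genes tested fell. Hist1h1c fell from 135 ± 39.6 to 33.2 ± 13.0 CPM (SD, n = 5; edgeR adjusted p = 0.00152). After Trrap deletion it rose to 77.0 ± 38.5 CPM (adjusted p = 0.0190), whereas H1f0, the replication-independent variant, fell from 204 ± 13.4 to 152 ± 18.1 CPM (adjusted p = 0.00508). The Hist1h1c rise, a log2 fold change of 1.23, was 0.53 among labelled males alone and did not pass. Most histone mRNAs lack a poly(A) tail, so these poly(A)-selected counts cover only a part of them.

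Of 12 genes around Hmga2, let-7 and the Ink4 locus, 9 were tested. With 4-OHT, 2 rose and 0 fell, or 4 and 0 in the paired fit with the replicate block, which added Trim71 and Cdkn2b, the latter named after its values were seen. Igf2bp3, a fetal mRNA-binding protein, rose from 0.524 ± 0.467 to 3.54 ± 4.22 CPM (SD, n = 5; edgeR adjusted p = 0.0435), a call that was lost without any 1 of 7 libraries. Its log2 fold change was 2.75, and 1.68 without the treated culture of mouse 19. Igf2bp2, whose gene is a known Hmga2 target and which is named here after its values were seen, was the other, at 13.6 ± 8.98 and 46.6 ± 12.4 CPM. Lin28b, which blocks let-7 maturation, had 0 reads in all 15 libraries, which allows up to 3 reads in each. Cdkn2a, the Ink4a/Arf gene that Hmga2 is known to repress in neural stem cells, is named here outside the naming rule. It was at 84.2 ± 24.5 untreated, 76.1 ± 17.2 with 4-OHT and 64.1 ± 11.3 CPM in Fl/Fl cultures, with overlapping SDs. With 4-OHT it did not pass by edgeR, unpaired or paired. Whether Hmga2 had a part in its level was not tested. After Trrap deletion 0 of the 9 rose and 3 fell, led by Trim71, from 2.20 ± 2.43 to 0.315 ± 0.213 CPM (adjusted p = 0.0158). For Trim71 the log2 fold change was -2.78, and -1.88 without Fl/+ 4-OHT 19.

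Of 15 genes for receptors and partners of Hmgb1, 12 were tested. With 4-OHT 0 passed by edgeR, where 1 had an unadjusted p under 0.05, and 1 passed by DESeq2. In the paired fit with the replicate block 1 rose, Parp1, named after its values were seen. After Trrap deletion 0 rose and 4 fell, where 15.0% of all genes tested fell. The largest fall was that of Cd24a, a surface protein that binds extracellular Hmgb1, from 111 ± 20.6 to 34.8 ± 9.76 CPM (SD, n = 5; edgeR adjusted p = 0.00023). The receptor gene Ager had 2.98 ± 0.762 CPM in Fl/+ 4-OHT and 2.91 ± 2.31 CPM in Fl/Fl 4-OHT cultures, and Tlr9 had no reads.

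Markers of cell state and of other neural cells were read beside the members. Of 12 proliferation markers, 0 rose and 6 fell after Trrap deletion, Rrm2 most, from 142 ± 32.8 to 52.7 ± 15.7 CPM (edgeR adjusted p = 0.00086, n = 5). Over all genes tested 16.8% rose and 15.0% fell after Trrap deletion, and 7.34% rose and 6.45% fell with 4-OHT. With 4-OHT 0 of the 12 passed by edgeR and 0 by DESeq2, and 0 had an unadjusted p under 0.05 by edgeR. However, 4 rose in the paired fit with the replicate block (Mki67, Top2a, Mcm6 and Bub1, named after their values were seen). With 4-OHT 5 of 9 oligodendrocyte markers rose, among them Mbp from 16.3 ± 16.7 to 118 ± 95.5 CPM (adjusted p = 0.0205), and of 7 astrocyte markers 4 fell, S100b most, from 61.9 ± 41.8 to 16.4 ± 7.21 CPM (adjusted p = 0.0187). Gfap was the astrocyte marker that rose in edgeR's unpaired test, from 57.7 ± 43.3 to 548 ± 510 CPM (adjusted p = 0.0283). Without 1 library the log2 fold change of Gfap was 2.69 to 3.60, and the call was lost in 5 of 10 such fits, as it was for Vim. The treated culture of mouse 36 was 1 of those whose omission lost both calls, a library at odds with its sex label. The call of Mbp (2.86) was lost without the untreated culture of mouse 19 (2.69), and its log2 fold change was 3.68 without the untreated culture of mouse 26 and 2.25 without the treated one of mouse 36. That of S100b (-1.91) was lost without the treated culture of mouse 19 (-1.82). In the paired fit with the replicate block 5 oligodendrocyte markers rose and 1 fell, 2 astrocyte markers rose and 4 fell, and 2 neural stem cell markers rose and 4 fell. The summed oligodendrocyte markers spanned 3462 to 4508 CPM untreated and 3364 to 4651 CPM treated, and the astrocyte markers 5672 to 7531 and 4994 to 6735 CPM. The oligodendrocyte sum rests mostly on Olig1 (2442 CPM untreated, 1891 treated) and Olig2 (830 and 837). It therefore cannot show changes in the rarer markers. Of the 10 neural stem cell markers, 1 rose and 3 fell with 4-OHT, Vim from 2553 ± 316 to 3570 ± 440 CPM (adjusted p = 0.0235) and Hes5 from 73.5 ± 31.3 to 20.1 ± 6.82 CPM (adjusted p = 0.00517). After Trrap deletion 4 of the 10 fell, among them Hes5 to 9.89 ± 3.21 CPM (adjusted p = 0.0176), a call that was lost without Fl/Fl 39 and Fl/+ 4-OHT 36, although the log2 fold change was -0.970 there and -1.01 with them. Of 7 neuron markers tested, 0 passed with 4-OHT by edgeR, where 2 had an unadjusted p under 0.05, 1 passed by DESeq2 and 2 fell in the paired fit. After Trrap deletion 0 of the 9 oligodendrocyte markers passed by edgeR, where 2 had an unadjusted p under 0.05, and 1 passed by DESeq2. Of the 7 neuron markers 2 fell, Dcx from 44.5 ± 23.3 to 7.74 ± 2.86 CPM (adjusted p = 0.00123), and 1 of 7 astrocyte markers rose, Aldoc, from 510 ± 39.8 to 658 ± 47.5 CPM (adjusted p = 0.00439). The part of these changes in the levels of the HMG genes was not tested.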

How the data were processed

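Poly(A) RNA was sequenced by the authors as single-end reads of 51 bases from stranded libraries, mapped to GRCm38 with STAR 2.5.4b and counted per Ensembl gene from unique reads with featureCounts 1.5.0, as the methods and the submitters' processing notes give it. The deposited values are raw counts, without normalization. Symbols were matched in GENCODE vM21 (GRCm38) for 53706 of 53801 IDs.

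Each comparison used its own 10 libraries, edgeR 4.0.16, filterByExpr with a minimum count of 10, TMM scaling and glmQLFTest, with group as the single term. P-values were Benjamini-Hochberg adjusted over all genes tested, and genes under 0.05 passed. CPM used TMM-scaled totals, and CPM per kb the union of exons. Standard errors were the log2 fold change over the root of F. The p-values rest on the spread between cultures of different mice within a group. In the comparison of treated with untreated Fl/+ cultures both groups came from the same mice. This fit took those cultures as independent, so its p-values leave the pairing out.

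The labels and the methods differ on the dose and duration of 4-OHT, so no dose is given. The same mouse number marks cultures of the same mouse in both Fl/+ groups. Deviations from group means correlated between them with r of 0.175 to 0.660 over 13333 genes, so the replicate block is a paired alternative. Other alternatives were DESeq2 1.42.0 (Wald test, or its size factors alone), unscaled library size, other count filters, 1 fit over all 15 libraries, labelled sex as a term, labelled males only, each library left out and near-copies summed.

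The members and gene lists were chosen with earlier results of these data known. All 9 members and Trrap are named. From each list the gene with the largest rise and with the largest fall among those that passed, at a mean of at least 1 CPM, is named after Trrap deletion and with 4-OHT. For likeness, 3 genes by Pearson r are named for the member of each subfamily with the largest absolute log2 fold change after Trrap deletion. The floor of 3 reads covers counting error only.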

Additional observations from a re-analysis of the deposited data

Results flagged for a closer look

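4 of the 27 sets of 5 values (9 genes in 3 groups) held a library whose gap to the next, divided by the range, passed Dixon's 95% limit for 5 values. The rate of about 1 in 20 belongs to independent sets of normal values. The sets here are CPM that share libraries and mice, so the count is not set against that rate. Fl/Fl 4-OHT 37 was high for Hmga1 (105 CPM) and for Hmga2 (25.2 CPM). Both cultures of mouse 36 were high for Hmgn2, at 20.6 CPM untreated and 15.7 CPM with 4-OHT.

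After Trrap deletion, labelled males and labelled females went opposite ways for both Hmga genes, without overlap within either sex label as long as Hmga1b reads were not added to Hmga1. Groups of these sizes did not overlap for 50.3% of all genes tested in males and 62.5% in females. The log2 ratio of group means for Hmga1 was -0.60 in males (3 against 3) and 2.41 in females (2 against 2). With Hmga1b reads added it was -0.37 in males, whose groups then overlapped, and 1.41 in females. For Hmga2 it was -0.72 in males and 0.88 in females. Among labelled males alone both genes passed by edgeR, the females were not tested alone and the difference between the sexes was not tested. Fl/Fl males had 204 to 302 Hmga1b reads, Fl/Fl females 36 and 10. Fl/+ 4-OHT females had 419 and 383, and males 324, 11 and 9. Within each sex label the compared mice thus also differed in Hmga1b reads, but for mouse 19. Sex cannot be told apart from the set of mice here. 1 of the female-labelled Fl/Fl libraries (mouse 39) has the sex-linked reads of a male.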

How the results depend on the processing

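Of 576 values of the members' log2 fold changes under the alternatives, 553 kept their direction and their side of the threshold. Among labelled males only, Hmga1 after Trrap deletion turned to -0.61, Hmgn5 to 0.13 there and to 0.034 against untreated cultures, Hmgn3 to 0.12 against untreated cultures, and Hmgn1 to -0.031 with 4-OHT. 4 members then passed after Trrap deletion, where 5289 genes did, and the genes that passed were 1092 with 4-OHT and 2884 for Fl/Fl against untreated. Without both libraries at odds with their sex labels, a choice made after seeing the data as was the sum over shared stretches, 1 member and 3513 of 15142 genes passed after Trrap deletion. With library size alone Hmgn5 turned to 0.032 after Trrap deletion and Hmgb3 to 0.014 with 4-OHT. The replicate block by mouse raised the genes that passed with 4-OHT to 3809 and those of the other lists from 22 to 38, and changed no member's call.

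Leaving out 1 library turned the sign of values near 0 or resting on 1 mouse. After Trrap deletion the ranges were -0.41 to 0.12 for Hmga2, -0.087 to 0.099 for Hmgn3 and -0.101 to 0.088 for Hmgn5. With 4-OHT they were -0.116 to 0.005 for Hmgb3 and -1.23 to 0.47 for Hmgn2, and for Fl/Fl against untreated -0.422 to 0.054 for Hmgb2. Genes that passed with 4-OHT ranged from 1271 (without treated mouse 19) to 2522, and those of the other lists from 12 (again without treated mouse 19) to 24. Trrap itself did not pass after Trrap deletion among labelled males (-0.35). Shared stretches limit how reads of all members but Hmgn3 could be assigned, those of Hmga1 and Hmgn2 most. The causes of these shifts were not tested.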
